A study of Mus musculus with 7 samples.

Results

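Polyamine synthesis and turnover was followed in sorted mouse prostate luminal cells through 10 genes chosen by name: Odc1, Oaz1, Oaz2, Azin1, Amd1, Srm, Sms, Sat1, Smox and Paox. Of these, 7 had at least 1 Affymetrix probe set annotated to that gene alone, 14 probe sets together, among the 18193 genes measured. Every Sms probe set was shared with the pseudogene Sms-ps, so its values belong to neither gene with certainty. Expression of Amd1 and Paox was not analysed, since the annotation used lists no probe set for them. Only the sequence upstream of their starts was searched. The arrays compared T-ETV1 luminal cells, in which the mouse's own Tmprss2 promoter expresses the cDNA of human ETV1, an ETS transcription factor, and which were sorted as GFP positive (4 arrays, A to D), with wild-type luminal cells (WT, 3 arrays, A to C), for which no GFP gate is named. Both groups were sorted as lineage negative (CD31, CD45, Ter119), Sca1 negative and CD49f positive. Genotype and GFP gate cannot be told apart. The sources used here do not give age, strain or the number of mice behind an array, and the p-values measure only the spread between these arrays. The design text counts 3 biological replicates but 4 arrays carry T-ETV1 titles, and all 4 were used as separate samples.

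Ornithine decarboxylase (Odc1) makes putrescine from ornithine, and spermidine synthase (Srm) and spermine synthase (Sms) extend it with aminopropyl groups that S-adenosylmethionine decarboxylase (Amd1) provides. Antizymes (Oaz1, Oaz2) bind ornithine decarboxylase, direct it to the proteasome and slow polyamine uptake. Their full-length translation needs a ribosomal frameshift that polyamines favour, so that mRNA level and protein level of these genes need not move together. The antizyme inhibitor Azin1, a relative of ornithine decarboxylase without its activity, binds antizyme in its place. Breakdown runs through the acetyltransferase Sat1 and the oxidase Paox, or through the spermine oxidase Smox, which releases hydrogen peroxide. The prostate is among the tissues richest in polyamines, and it secretes spermine into the seminal fluid.

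The stretches before the transcription starts of Odc1 and Sat1, the committed steps of synthesis and of breakdown, are shown because the T-ETV1 allele encodes an ETS factor, a family that binds around the core GGAA. They are from RefSeq on GRCm38.p6, the 250 bases upstream of the start read 5′ to 3′ on the gene's strand, with GGAA and its reverse complement TTCC in capitals. The Odc1 stretch lies at chr12:17544623-17544872 on the + strand and the Sat1 stretch at chrX:155216450-155216699 on the - strand. The start is that of the promoter table, and the last 65 bases of the Odc1 stretch lie inside the span that RefSeq gives for the gene over all its transcripts.
Odc1: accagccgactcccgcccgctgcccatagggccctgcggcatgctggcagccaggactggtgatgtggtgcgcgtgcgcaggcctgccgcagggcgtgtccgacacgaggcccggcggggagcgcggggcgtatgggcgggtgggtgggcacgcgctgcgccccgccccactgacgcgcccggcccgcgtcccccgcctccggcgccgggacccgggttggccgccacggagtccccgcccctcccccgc
Sat1: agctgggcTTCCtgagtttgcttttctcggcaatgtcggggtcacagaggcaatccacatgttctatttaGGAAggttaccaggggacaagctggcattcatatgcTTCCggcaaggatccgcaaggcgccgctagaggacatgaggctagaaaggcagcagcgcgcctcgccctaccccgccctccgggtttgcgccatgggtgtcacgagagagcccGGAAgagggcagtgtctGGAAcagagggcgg
The core GGAA, searched on both strands, had 0 matches in the Odc1 stretch and 5 in the Sat1 stretch. Of all 32851 upstream stretches of this length, 93.4% held it at least once, with a median of 3 matches. The longer form CCGGAA, which contains the core, had 2 matches in the Sat1 stretch and 0 in the Odc1 stretch, against 12.0% of all stretches with a match. The E-box CACGTG, the letters that Myc is known to bind, had 0 matches in either and was in 6.02% of all stretches. Sequence beyond these stretches, such as that after the start, was not searched, so sites elsewhere in a gene would be missed. The GC box GGGCGG had 4 matches in the Odc1 stretch, which is 80.0% G and C, and 2 in the Sat1 stretch, and was in 32.7% of all stretches. In the other stretches of the list GGAA had 4 matches for Oaz1, 4 for Oaz2, 2 for Amd1, 2 and 3 for the starts of Sms, 1 for Smox and 3 for each start of Paox. The stretches of Paox overlap and hold the same 3 matches. They lie wholly inside the span of the gene, as does 1 stretch of Sms. There was no stretch for Srm or Azin1. Among the genes with a stretch, the counts do not part synthesis from breakdown. CCGGAA also had 1 match for each start of Sms and 1 for Smox, and CACGTG had 1 match for 1 start of Sms. These are matches of letters and not measured binding.

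Intensities are the deposited values on a linear scale, which rank the arrays for a probe set but do not set the level of a gene against that of another. Array medians of intensity ran between 48.5 and 73.7. On the first principal component of all genes (45.3% of the variance), T-ETV1 C lay at 41.6 and WT C, the furthest out, at 87.9. The other 3 T-ETV1 arrays fell within -43.8 and -42.0, and WT A and WT B lay at -14.5 and 13.2. Of the luminal markers Krt8, Krt18, Pbsn and Cd24a, 4 of 6 listed, the summed intensity was 37028 to 42003 in T-ETV1 and 37970 to 39517 in WT. Basal markers (Krt5, Krt14, Krt15 and Trp63) summed to 281 to 13681 in T-ETV1 and 3948 to 15893 in WT, so that markers of a cell type other than luminal were well above 0 in some arrays of both groups. Tmprss2, whose promoter drives the allele, had a log2 difference of -0.15 ± 0.19 (SE), T-ETV1 minus WT (limma adjusted p = 0.944).

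No polyamine gene passed the test between genotypes. With limma across all genes, 0 of the 7 had an adjusted p under 0.05, and so had 0 of 18193 genes, a background of 0%. At an unadjusted p under 0.05 there were 0 of the 7, against 6.12% of all genes. The arrays of the genotypes did not overlap in 0 of the 7, against 6.32% of all genes. The log2 differences of the 7 ran between -0.40 (Smox) and 0.20 (Odc1) with a median of -0.002, beside a median of -0.03 over all genes. Of the 7, 3 had a difference above 0, against 44.4% of all genes. Here and below a log2 value is log2(intensity + 16), and a difference is T-ETV1 minus WT with its standard error.

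**Figure D1:**
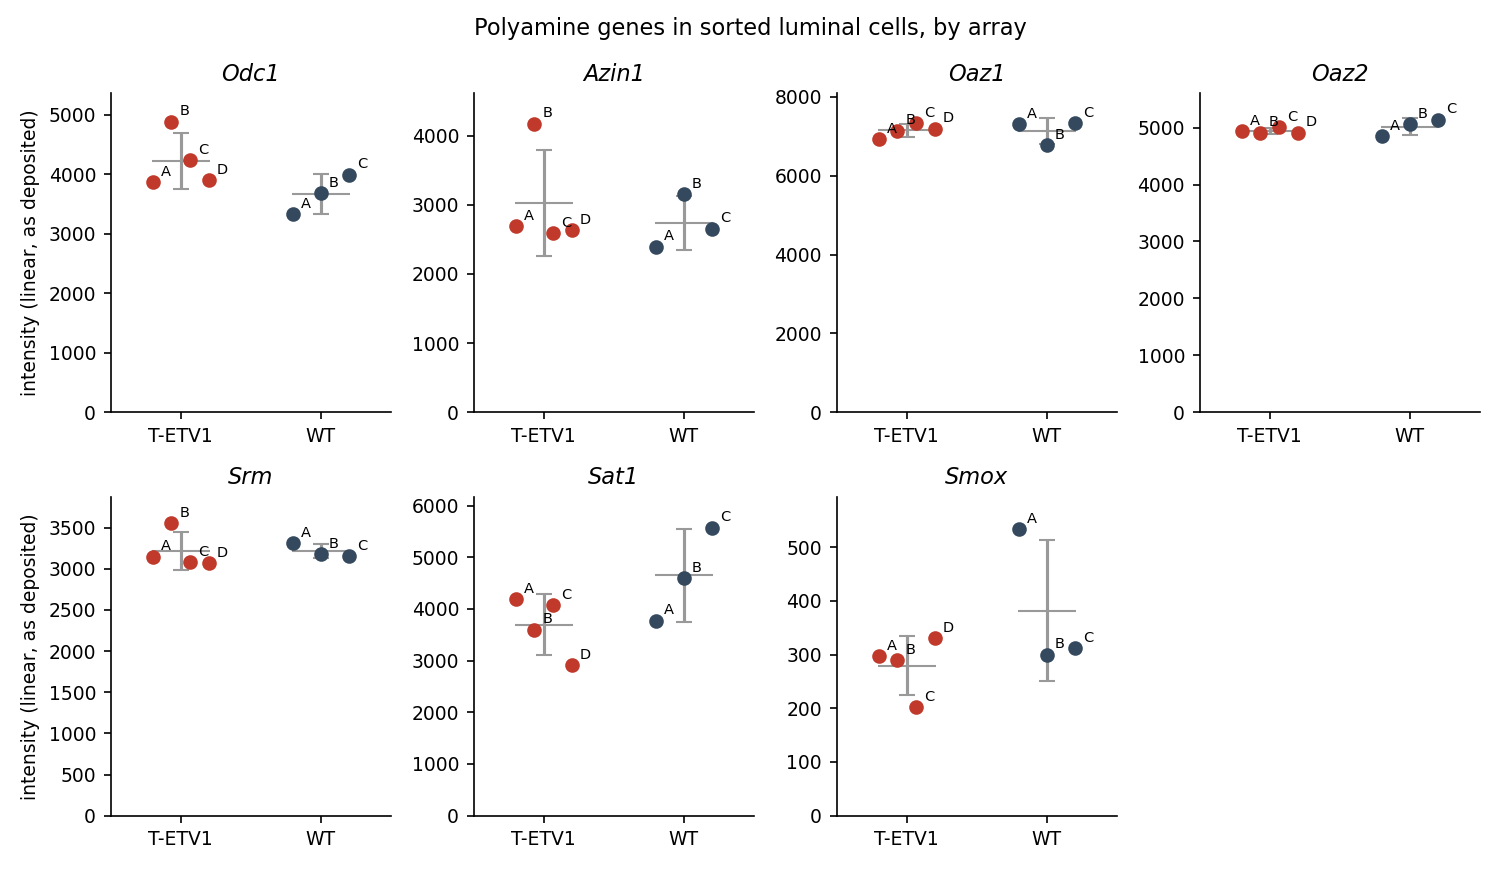
Deposited intensity (linear scale, from 0) of the probe set that stands for each of 7 polyamine genes, with a point for each array, its replicate letter beside it, and grey bars for the mean and SD of the 4 T-ETV1 and 3 WT arrays. T-ETV1 B is the highest array for Odc1 (4884), Azin1 (4172) and Srm (3556), WT C for Sat1 (5575) and WT A for Smox (533), while the 7 arrays of Oaz1 and of Oaz2 lie close together.

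In the synthesis arm, Odc1 had the highest positive difference among the 7 genes. Its intensity was 3874, 4884, 4236 and 3902 in T-ETV1 arrays A to D, against 3329, 3679 and 3996 in WT arrays A to C. The groups overlapped only in that WT C exceeded T-ETV1 A and T-ETV1 D, and T-ETV1 B stood highest. The mean was 4224 ± 470 (SD, n = 4) in T-ETV1 and 3668 ± 334 (SD, n = 3) in WT, a log2 difference of 0.20 ± 0.13 (limma adjusted p = 0.876). As a fold this is 1.15, with a 95% interval of 0.930 to 1.42.

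Odc1 had a further pair of probe sets, and both differences had the same sign. The second probe set read 2844, 3993, 3410 and 3092 in T-ETV1 arrays A to D, against 2674, 2908 and 3174 in WT arrays A to C (log2 difference 0.18 ± 0.15). The third, a dimmer probe set, read 804, 1468, 980 and 1007 in T-ETV1 arrays A to D, against 581, 806 and 920 in WT arrays A to C (log2 difference 0.45 ± 0.25). In all 3 probe sets T-ETV1 B was the highest of the 7 arrays and WT A the lowest. The 3 probe sets read transcripts of the same gene in the same RNA and are not separate observations. The probe set that stands for Odc1 is of the _x_at type, in which some probes may also bind other transcripts.

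Srm, which makes spermidine, had the smallest difference of the 7 genes. Its intensity was 3148, 3556, 3084 and 3069 in T-ETV1 arrays A to D, against 3313, 3177 and 3153 in WT arrays A to C. All arrays other than T-ETV1 B lay between 3069 and 3313. The means were 3214 ± 230 (SD, n = 4) in T-ETV1 and 3214 ± 86.2 (SD, n = 3) in WT. The log2 difference was -0.002 ± 0.099, with a sign that turned after quantile normalization (0.019) and median centring (0.13), and the 95% interval of the fold ran between 0.847 and 1.18.

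For spermine synthase only the probe sets shared by Sms and Sms-ps give a reading. The brightest read 2395, 3174, 2966 and 2920 in T-ETV1 arrays A to D, against 2493, 2730 and 2418 in WT arrays A to C (log2 difference 0.16 ± 0.14). The second read 2283, 2551, 2390 and 2502 in T-ETV1, against 2202, 2279 and 1909 in WT (log2 difference 0.19 ± 0.12, adjusted p = 0.899 with limma over all 45037 probe sets). In this second probe set every T-ETV1 array was above every WT array, by a margin of only a few intensity units between T-ETV1 A and WT B. Of all genes, 2.42% were higher in T-ETV1 without overlap, and the share over all probe sets was not computed. The third shared probe set had the opposite sign (-0.42 ± 0.40), with 135 in T-ETV1 C as the lowest value.

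The antizymes were the least variable of the 7 genes. Oaz1 read 6937, 7147, 7331 and 7198 in T-ETV1 arrays A to D, against 7306, 6770 and 7334 in WT arrays A to C. Oaz2 read 4936, 4912, 5012 and 4914 in T-ETV1 arrays A to D, against 4851, 5069 and 5140 in WT arrays A to C. In both genes the T-ETV1 arrays lay inside the WT range. The coefficient of variation over the 7 arrays was 3.04% for Oaz1 and 2.04% for Oaz2, next to 5.30% for Srm, 12.2% for Odc1, 20.4% for Sat1, 20.9% for Azin1 and 31.3% for Smox. The Oaz1 and Oaz2 probe sets were also the brightest of the 7. Among the luminal markers, also bright, it was 1.51% for Pbsn, 2.76% for Cd24a, 4.08% for Krt18 and 16.6% for Krt8, so a low value is not particular to antizymes. The log2 difference was 0.004 ± 0.089 for Oaz1 and -0.02 ± 0.09 for Oaz2. After median centring, which moved the median of all genes to 0.11, they were 0.14 for Oaz1 and 0.11 for Oaz2, the second with its sign turned. The 95% intervals of the fold were 0.865 to 1.16 for Oaz1 and 0.855 to 1.13 for Oaz2.

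Other readings of the antizymes were less even. The probe set shared by Oaz1 and its pseudogene Oaz1-ps read 5501, 5018, 5569 and 5301 in T-ETV1 arrays A to D, against 5703, 5979 and 5805 in WT arrays A to C. All 4 T-ETV1 arrays were below all 3 WT arrays there, with a log2 difference of -0.13 ± 0.10 (adjusted p = 0.920 with limma over all probe sets). Of all genes, 3.9% were lower in T-ETV1 without overlap, and the share over all probe sets was not computed. The probe set annotated to Oaz1 alone did not separate the groups in this way. Of the further Oaz2 probe sets, the brighter, with a mean intensity of 677, had a log2 difference of 0.01 ± 0.18. The dimmer, with a mean intensity of 66.5, had one of 0.38 ± 0.26.

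Azin1 was highest in a single array. Its intensity was 2695, 4172, 2594 and 2634 in T-ETV1 arrays A to D, against 2394, 3154 and 2654 in WT arrays A to C. In each genotype the B array was the highest, and T-ETV1 B stood far above the other 3 T-ETV1 arrays. The mean was 3024 ± 767 (SD, n = 4) in T-ETV1 and 2734 ± 386 (SD, n = 3) in WT, with a log2 difference of 0.12 ± 0.21 (limma adjusted p = 0.956). Without T-ETV1 B the difference was -0.04. A second Azin1 probe set showed the same order of the B arrays, with 1656, 3330, 1226 and 1421 in T-ETV1 arrays A to D, against 1269, 2084 and 1388 in WT arrays A to C. The dimmest Azin1 probe set, with a mean intensity of 77.7, had the opposite sign (-0.39 ± 0.27).

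Myc, the transcription factor known to induce Odc1, belongs to the list of the wider pathway, and its values are given because of this pattern, after they were seen. It read 820, 1694, 668 and 512 in T-ETV1 arrays A to D, against 566, 1220 and 1055 in WT arrays A to C. As for Azin1, the B array was the highest in each genotype. Some other genes of the same list (Arg2, Aldh18a1 and Sat2) and the luminal marker Krt8 had this order too. It is thus not particular to Myc and Azin1. For Odc1 this held in T-ETV1 only, since WT C (3996) was above WT B (3679). The share of all genes with this order was not computed, and a link of Myc to either gene was not tested. The log2 difference of Myc was -0.11 ± 0.45.

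On the breakdown side, the acetyltransferase gene Sat1 ranked first of the polyamine genes by unadjusted p but did not pass (limma adjusted p = 0.867). Its intensity was 4196, 3600, 4077 and 2907 in T-ETV1 arrays A to D, against 3771, 4598 and 5575 in WT arrays A to C. WT B and WT C lay above every T-ETV1 array, while WT A lay below T-ETV1 A and T-ETV1 C. The mean was 3695 ± 585 (SD, n = 4) in T-ETV1 and 4648 ± 903 (SD, n = 3) in WT. The log2 difference was -0.33 ± 0.19, a fold of 0.798 with a 95% interval of 0.583 to 1.09. Without WT C it was -0.19, and without WT A it was -0.47.

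The array with the highest Sat1 was also the one with the highest summed markers of basal cells, myeloid cells, fibroblasts, endothelium and smooth muscle. For the basal markers, whose sums are given above, 4 of 4 had a lower mean log2 value in T-ETV1. The summed intensity of 4 myeloid markers (Lyz2, Csf1r, Cd68 and C1qa, 3 of 4 with a lower mean log2 value in T-ETV1) was 81.3 to 5625 in T-ETV1 and 86.1 to 8879 in WT. That of 5 fibroblast markers (5 of 5 lower) was 1551 to 7190 in T-ETV1 and 3581 to 17594 in WT, that of 5 endothelial markers (5 of 5 lower) 35.8 to 1211 in T-ETV1 and 929 to 2590 in WT, and that of 5 smooth muscle markers (5 of 5 lower) 109 to 789.7 in T-ETV1 and 529 to 5265 in WT. The sum of 4 leukocyte markers (3 of 4 lower), most of it from Cd52, was 5773 to 9183 in T-ETV1 and 6839 to 8131 in WT, with T-ETV1 B the highest. Cd52 alone read 5751 to 9153 in T-ETV1 and 6657 to 7259 in WT, so that the sum does not show the other leukocyte markers. WT C was the highest array for Ptprc (467), Cd3e (887) and Cd79a (120). Ptprc, the CD45 gene selected against in the sort, read 4.56 to 56.0 in T-ETV1 and 4.63 to 467 in WT. No gene of these lists passed the test (limma, 0 called in each list). Their part in the Sat1 values was not tested, and in a sorted bulk sample fewer cells of a type and less RNA per cell cannot be told apart. The myeloid sum of T-ETV1 C, the second highest, was mostly Lyz2 (4962), with Csf1r at 295 against 2213 in WT C. T-ETV1 C was also second highest in the basal (13681), fibroblast (7190) and endothelial (1211) sums, and below WT B and WT C for smooth muscle. The Sat1 intensity of T-ETV1 C was 4077. That was below the 4196 of T-ETV1 A, the array with the lowest basal sum (281). The relation of Sat1 to these markers was not tested in T-ETV1 C either.

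Smox, the spermine oxidase, had the largest difference in size, on a dimmer probe set. Its intensity was 297, 289, 202 and 330 in T-ETV1 arrays A to D, against 533, 300.04 and 312 in WT arrays A to C. WT A stood apart from all other arrays, and T-ETV1 D lay above WT B and WT C. The mean was 279 ± 54.6 (SD, n = 4) in T-ETV1 and 382 ± 131 (SD, n = 3) in WT. The log2 difference was -0.40 ± 0.25 (limma adjusted p = 0.876), a fold of 0.757 with a 95% interval of 0.499 to 1.15. Without WT A the difference was -0.14. The other Smox probe set had a mean intensity of 46.2 and the opposite sign (0.50 ± 0.51).

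**Figure D2:**
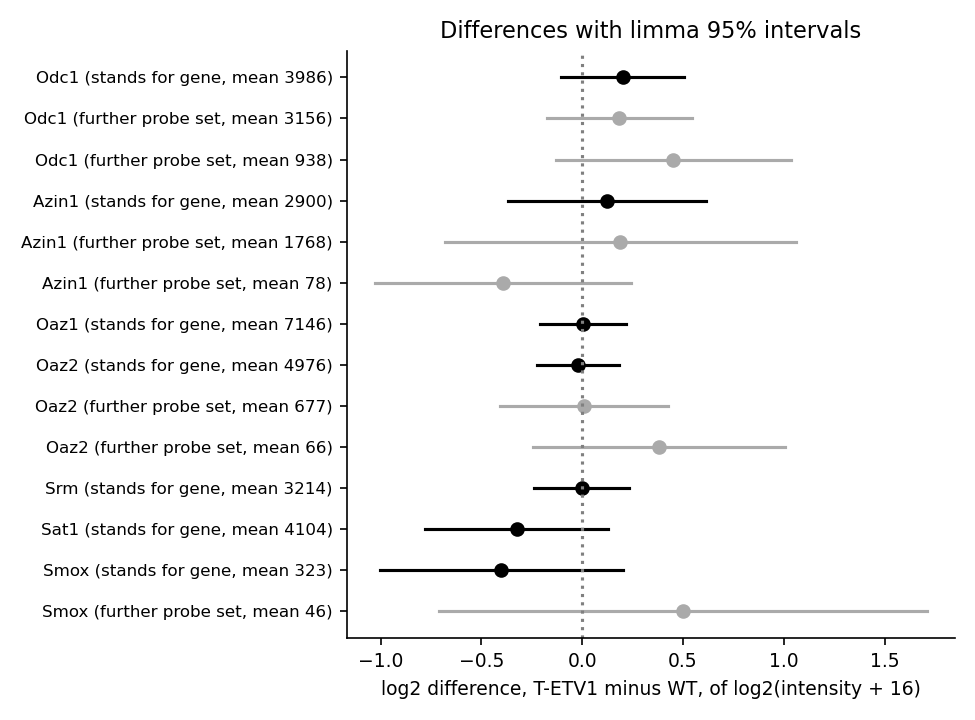
Log2 difference, T-ETV1 minus WT, with limma 95% intervals, for the probe set that stands for each gene (black) and for further probe sets annotated to that gene alone (grey), with the mean intensity over the 7 arrays in the label. All intervals cross 0, the 3 Odc1 probe sets lie on the positive side, and the dimmest probe sets of Azin1, Oaz2 and Smox have the opposite sign to the probe set that stands for the gene.

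Both genotypes have arrays lettered A to C, and arrays of a letter deviated together from their group means (correlations of 0.281, 0.217 and 0.356 for A, B and C). Within the letters, Odc1 was higher in T-ETV1 in 3 of 3 pairs, by 0.22 (A), 0.41 (B) and 0.08 (C) on the log2 scale. Among all genes 10.9% were higher in T-ETV1 in all 3 pairs. Smox was lower in 3 of 3 pairs, by -0.81 (A), -0.05 (B) and -0.59 (C), and 16.7% of all genes were lower in all 3. Sat1 was lower in the B and C pairs (-0.35 and -0.45) and higher in the A pair (0.15). Azin1 was higher in the A and B pairs (0.17 and 0.40) and had -0.03 in the C pair. With the letter as a block, which leaves out T-ETV1 D, no member passed: the log2 difference was 0.24 ± 0.14 for Odc1 and -0.48 ± 0.20 for Smox (limma adjusted p = 0.832 and 0.743).

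**Figure D3:**
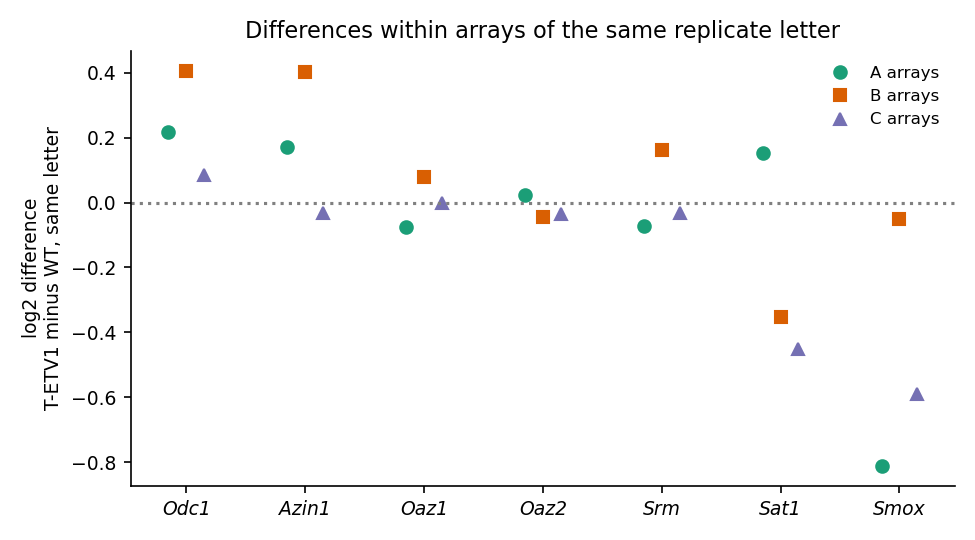
Log2 difference, T-ETV1 minus WT, between the arrays of the same replicate letter (A circles, B squares, C triangles) for 7 polyamine genes. The 3 points of Odc1 lie above 0 (0.08 to 0.41) and those of Smox below 0 (-0.81 to -0.05), while Oaz1, Oaz2, Srm, Azin1 and Sat1 have points on both sides.

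The genes whose log2 values over the 7 arrays were most like those of Odc1, among 10214 genes with a mean intensity of at least 100, were Gucd1 (Pearson r = 0.973, Spearman rho = 0.964), Nek4 (r = 0.970, rho = 0.857) and Cry2 (r = 0.969, rho = 0.929). Without T-ETV1 B and WT A, the arrays furthest from the Odc1 median, r was 0.905, 0.842 and 0.901 for Gucd1, Nek4 and Cry2. Most like Sat1 were Nucks1 (r = 0.972, rho = 0.964), Nr6a1 (r = 0.970, rho = 0.964) and Med31 (r = 0.967, rho = 0.964). Without T-ETV1 D and WT C, r was 0.993, 0.910 and 0.915 for Nucks1, Nr6a1 and Med31. These are the highest of many coefficients over 7 arrays that share their hybridisation and scaling, and are given as a description.

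Around the core pathway, 28 genes of precursor supply, transport, the methionine cycle and its salvage arm, hypusine formation and acetylpolyamine metabolism, with the relatives Oaz3 and Azin2 and the regulator Myc, were listed, and 27 were measured. None passed the test in either direction (0 higher and 0 lower of 27 with limma over all genes, 2 at an unadjusted p under 0.05). Of the 27, 15 had a difference above 0 and 12 below, with a median of 0.01, beside -0.03 over all genes. In 4 of the 27 (14.8%) the arrays of the genotypes did not overlap, 2 higher and 2 lower, next to 6.32% of all genes (2.42% higher and 3.9% lower). The 8 genes with the smallest unadjusted p are given with their values, and none was past the threshold.

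Mri1, an isomerase that returns the methylthioadenosine left by spermidine and spermine synthesis towards methionine, had the smallest p. Its intensity was 1002, 942, 849 and 861 in T-ETV1 arrays A to D, against 779, 664 and 672 in WT arrays A to C. Every T-ETV1 array was above every WT array, with a log2 difference of 0.37 ± 0.11 (limma adjusted p = 0.741). Ahcy, which clears S-adenosylhomocysteine in the methionine cycle, read 2248, 2326, 2486 and 1976 in T-ETV1 arrays A to D, against 2745, 2505 and 2827 in WT arrays A to C. Every T-ETV1 array was below every WT array, T-ETV1 C only narrowly, with a log2 difference of -0.25 ± 0.12 (limma adjusted p = 0.822).

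Oat, the ornithine aminotransferase, read 3130, 2667, 2866 and 2879 in T-ETV1 arrays A to D, against 3242, 3219 and 3633 in WT arrays A to C. These groups did not overlap either, and the log2 difference was -0.22 ± 0.10 (limma adjusted p = 0.833). Arg1, an arginase that releases ornithine from arginine, had a log2 difference of 0.66 ± 0.37, with 365 in T-ETV1 B and 220 in T-ETV1 C as its highest intensities and 101 to 135 in WT. Dhps, which uses spermidine to begin the hypusine modification of the translation factor Eif5a, read 1548, 1572, 1730 and 1472 in T-ETV1 arrays A to D, against 1397, 1453 and 1469 in WT arrays A to C. T-ETV1 D lay only just above WT C, and the log2 difference was 0.13 ± 0.10.

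Of the transporters, Slc12a8, which has been linked to polyamine uptake, read 161, 50.5, 144 and 120 in T-ETV1 arrays A to D, against 35.0, 37.1 and 72.0 in WT arrays A to C. T-ETV1 B lay inside the WT range, and the log2 difference was 1.03 ± 0.38 (limma adjusted p = 0.792). Atp13a2, a lysosomal polyamine exporter, had a log2 difference of 0.37 ± 0.16, and its T-ETV1 C array (847) lay inside the WT range of 769 to 892. Sat2, a relative of Sat1 that acts on thialysine, had a log2 difference of 0.50 ± 0.27, and read 511, 528, 264 and 372 in T-ETV1 arrays A to D, against 242, 346 and 263 in WT arrays A to C, with T-ETV1 C inside the WT range.

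**Figure D4:**
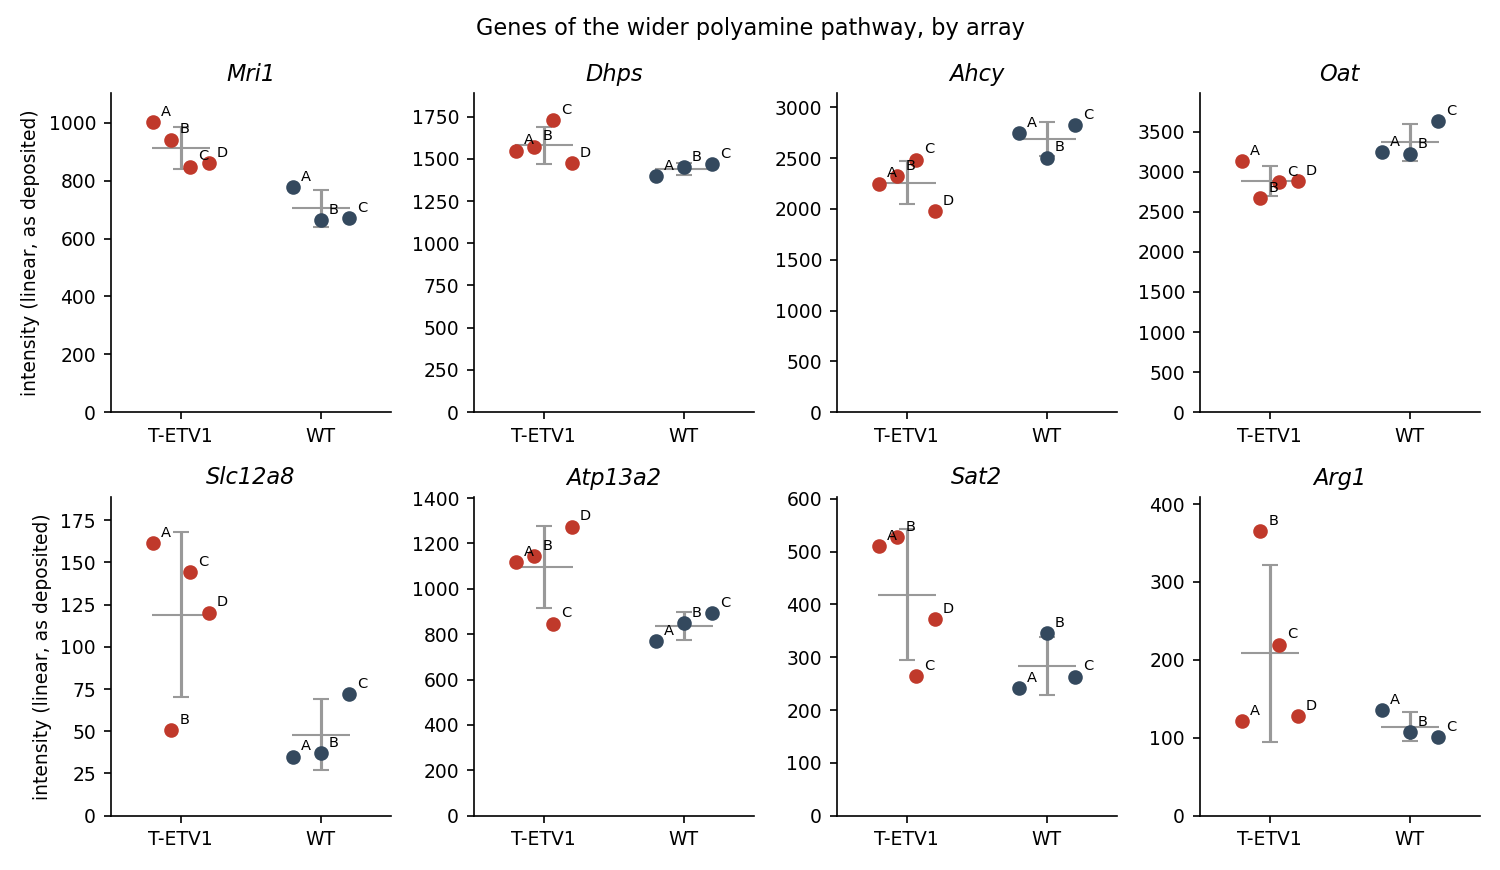
Deposited intensity (linear scale, from 0) by array for the 8 genes of the wider polyamine pathway with the smallest unadjusted p, with replicate letters beside the points and grey bars for mean and SD of the 4 T-ETV1 and 3 WT arrays. The arrays of the genotypes do not overlap for Mri1 and Dhps (T-ETV1 above) or for Ahcy and Oat (T-ETV1 below), and they overlap for Slc12a8, Atp13a2, Sat2 and Arg1.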

How the data were processed

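Per the labels' protocols, Trizol-extracted luminal cell RNA was amplified by NuGEN chemistry for Affymetrix mouse expression arrays. Each probe set has 1 deposited intensity per array, linear in scale. How the authors summarised probes and scaled arrays is not given in the sources used here. Precision is limited by the number of arrays.

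Of 45037 probe sets, 34945 had 1 gene symbol in the platform annotation, 932 had several and 9160 had no entry. RefSeq (GRCm38.p6) gave current symbols for 34741 through their Entrez ID. The probe set with the highest mean stood for a gene. Values were taken as log2(intensity + 16), which understates changes of dim probe sets, without rescaling, since array medians differed by 0.476, under the limit of 0.5. limma 3.58.1 (R 4.3.3, lmFit and eBayes, two-sided, Benjamini-Hochberg over all genes, threshold 0.05) tested T-ETV1 minus WT over 7 arrays, and was tested on simulated data. Probe sets shared with pseudogenes were fitted over all 45037 probe sets, a choice made after seeing the data, as were standard errors of further probe sets.

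Promoters of 8 of the 10 genes matched RefSeq. The members and lists were chosen with earlier results of these data known. The text names all members and the 8 wider pathway genes with the smallest p; Myc, of the same list, was named after its values were seen. The main test did not use the replicate letters. For the differences within letters and the replicate block, A to C were taken as pairs. Same-letter arrays correlated above 0.1 in their deviations (0.281, 0.217 and 0.356), while T-ETV1 D with WT A, of unlike letters, reached 0.187. Alternatives were quantile normalization, median centring, pseudocounts of 1 and 64, dropping the lowest 50% of genes, averaging the probe sets of a gene, testing each probe set separately, the replicate block and leaving out arrays.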

Additional observations from a re-analysis of the deposited data

Results flagged for a closer look

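Among the 14 probe sets annotated to a single polyamine gene, 1 had a T-ETV1 array that stood apart from the other 3 by Dixon's ratio. It was Azin1, where T-ETV1 B had an intensity of 4172 and the gap to the next array was 0.919 of the range of the log2 values, above the 95% critical value for 4 arrays. Chance flags about 1 in 20 groups, and over all genes 6.81% had such an array among the 4 of T-ETV1. T-ETV1 B stood apart as the highest in 1.2% of all genes.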

How the results depend on the processing

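Of the 112 alternative values for the 7 genes, 97 kept the sign of the difference, 15 turned it and 0 passed the threshold. Some of the 97 could not turn it. Dropping the lowest genes and testing each probe set separately left the differences of all 7 genes as they were. Averaging probe sets did the same for Oaz1, Srm and Sat1. The replicate block gave the same differences as leaving out T-ETV1 D. The 112 values are thus not separate checks of the sign. Odc1 (0.13 to 0.34) and Sat1 (-0.47 to -0.19) kept their sign under all 16 alternatives, which include those that could not turn it. Genes with a difference near 0 changed sign: Srm was 0.019 after quantile normalization, 0.13 after median centring, 0.019 with the replicate block and 0.0029 without both arrays C, and lay between -0.052 and 0.020 without each array in turn. Median centring gave 0.14 for Oaz1, its sign kept. Oaz2 was 0.11 after median centring and 0.12 when its probe sets were averaged. With probe sets averaged, Azin1 was -0.027. Smox, whose difference was not near 0 (-0.40), was 0.050 when averaged with its dimmer probe set of the opposite sign (0.50). Without each array in turn, Azin1 ran between -0.041 and 0.23 and Oaz1 between -0.033 and 0.024. Median centring moved the median difference of all genes to 0.11, against -0.03 as deposited. Over all genes, 0 passed with every alternative apart from leaving out arrays. Without each array in turn, the count lay between 0 and 27 (27 without T-ETV1 C and 7 without WT C), with none of the 7 polyamine genes among them. For leaving out both arrays C, no count over all genes is given. The replicate block changed no call. The dimmest probe sets of Azin1, Oaz2 and Smox, with a mean intensity under 100, limit those readings.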
